A study of Mus musculus with 3 samples.

Results

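Forkhead genes encode transcription factors that share the winged-helix DNA-binding domain, and 36 of them were represented on arrays of sorted nephron progenitors. They were chosen by name, as every gene of the subfamilies Foxa to Foxs with a probe set annotated to that gene alone. Foxd1, the marker of cortical stroma, was left out. The rule gave 36 of 18193 named genes and 81 of 34945 single-gene probe sets. Foxred1 and Foxred2, whose names also begin with Fox, encode oxidoreductases and are not members.

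Fluorescence-activated cell sorting yielded the cells from mouse embryonic kidneys (strain CD-1, stage E15.5 or Theiler stage 23, sex unknown) carrying the transgene Tg(Six2-EGFP/cre)1Amc. Six2 regulatory sequences drive the reporter in this line, so the sort enriches cap mesenchyme, the self-renewing nephron progenitors around the ureteric tips. All 3 samples belonged to this single group, each a pool of about 5 to 10 kidneys on an array of its own, called pools 1 to 3. Without a control group, each gene was set against the background level of its own array, and the question was which forkhead transcripts the progenitors hold.

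Forkhead proteins read signals and lineage in many tissues. FoxO proteins are kept out of the nucleus by AKT, and Foxm1 drives genes of mitosis. Foxc1 and Foxc2 pattern mesoderm, and mouse embryos without Foxc1 form duplicated kidneys and ureters. Other members mark lineages outside the nephron, such as Foxa genes in endoderm, Foxn1 in thymus, Foxi1 in intercalated cells and Foxj1 in cells with motile cilia.

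Values are linear array signals. The background level, the 95th percentile of probe sets for olfactory, vomeronasal and taste receptors, keratin-associated proteins and defensins, lay at 197, 187 and 201 in pools 1, 2 and 3. A gene was called above background where limma's one-sided test of log2(signal + 16) against that level gave a Benjamini-Hochberg adjusted p under 0.05 for any of its probe sets. Levels of different genes are not ranked, because probe sets differ in affinity. In pools of sorted cells, fewer cells with a transcript and less transcript per cell cannot be told apart. The labels do not say whether the pools came from separate litters, so p-values cover only these 3 samples, and that number limits the precision. They test a mean against a background level taken as fixed, with a variance that limma moderates over all tested probe sets. The SE given with log2 values is the moderated SE of the same fit.

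All 9 cap mesenchyme markers were above background, including Six2 at 7905 ± 1904 and Cited1 at 878 ± 121 (SD, n = 3 pools each). Stromal markers passed in 7 of 8 cases, podocyte markers in 2 of 5, ureteric bud and collecting duct markers in 2 of 9, and neural and neural crest markers in 1 of 4 (Elavl4, at 3581 ± 221). Of all named genes 54.4% passed, with 37.1% of those with 1 probe set and 71.9% of those with 2 or more. None of 6 endothelial, 6 endoderm and liver, 5 intercalated cell or 5 T lymphocyte markers passed in limma, and 0 of these had an unadjusted p under 0.05. Foxd1 itself read 7370, 7389 and 7938 in pools 1, 2 and 3, so transcripts of a stromal gene were present in the sorted cells. What part such cells had in the forkhead signals was not tested.

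Some of the called genes lie beside forkhead genes that were not called, and promoter sequences of such neighbours are shown because they let the members be compared at the sequence level. The sequences are RefSeq promoters of GRCm38.p6, from 250 bases before to 50 after the gene's start, 5′ to 3′ on the gene's strand, with every CG dinucleotide in capitals. Foxc1 (called) and Foxf2 (not called) lie on chromosome 13 at chr13:31806396-31806695 and chr13:31625566-31625865, both on the plus strand. Foxd2 (called) and Foxe3 (not called) lie on chromosome 4 at chr4:114908849-114909148 and chr4:114926018-114926317, both on the minus strand.
Foxc1: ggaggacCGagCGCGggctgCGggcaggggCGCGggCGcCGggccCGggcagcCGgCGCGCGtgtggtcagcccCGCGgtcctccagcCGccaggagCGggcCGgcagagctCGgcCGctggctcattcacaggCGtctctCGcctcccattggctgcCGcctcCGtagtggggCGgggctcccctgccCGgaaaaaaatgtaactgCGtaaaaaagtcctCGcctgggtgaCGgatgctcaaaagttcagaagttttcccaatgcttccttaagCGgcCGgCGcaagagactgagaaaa
Foxf2: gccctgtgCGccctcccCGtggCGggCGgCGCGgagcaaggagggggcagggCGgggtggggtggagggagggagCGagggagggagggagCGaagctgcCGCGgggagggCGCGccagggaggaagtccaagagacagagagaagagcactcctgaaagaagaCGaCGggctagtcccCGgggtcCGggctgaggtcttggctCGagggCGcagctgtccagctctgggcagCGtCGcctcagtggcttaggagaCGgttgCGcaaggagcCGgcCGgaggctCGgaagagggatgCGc
Foxd2: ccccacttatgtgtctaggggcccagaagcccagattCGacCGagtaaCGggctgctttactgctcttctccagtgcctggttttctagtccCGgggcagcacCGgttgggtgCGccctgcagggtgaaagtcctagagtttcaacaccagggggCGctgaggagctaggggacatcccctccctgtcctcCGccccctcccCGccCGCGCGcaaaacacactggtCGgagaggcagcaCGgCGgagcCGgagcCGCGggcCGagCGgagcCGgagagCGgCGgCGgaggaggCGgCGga
Foxe3: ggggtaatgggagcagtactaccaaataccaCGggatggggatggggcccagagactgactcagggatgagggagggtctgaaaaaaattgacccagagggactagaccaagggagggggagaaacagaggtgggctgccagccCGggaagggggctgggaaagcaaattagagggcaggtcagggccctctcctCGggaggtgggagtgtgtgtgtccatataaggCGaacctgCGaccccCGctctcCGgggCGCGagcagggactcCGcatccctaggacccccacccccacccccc

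The Foxc1 and Foxf2 windows held 32 and 27 CG dinucleotides, and those of Foxd2 and Foxe3 held 26 and 10. The CpG ratio, the observed count of CG over that expected from the content of C and G, was 0.943 for Foxc1, 0.787 for Foxf2, 0.758 for Foxd2 and 0.345 for Foxe3. The Foxf2 window, whose gene was not called, thus had about the ratio of the Foxd2 window, whose gene was.

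Of the 36 forkhead genes, 16 (44.4%) were above background, against 54.4% of all named genes. The called members were Foxc1, Foxc2, Foxd2, Foxj2, Foxj3, Foxk1, Foxk2, Foxl2, Foxm1, Foxn2, Foxn3, Foxo1, Foxo3, Foxo4, Foxp1 and Foxp2. Among probe sets, 34 of 81 forkhead probe sets (42.0%) passed, against 47.2% of single-gene probe sets and 41.5% of all probe sets. Under other call rules, 10 of the 36 had a majority of their probe sets above background (38.9% of all named genes), 14 passed against the 99th percentile of background (46%), and 18 had a probe set over the background level on all 3 arrays (57.1%). The median forkhead gene lay at -0.09 on the log2 scale relative to background, and the median named gene at 1.20. Members with 1 probe set passed in 1 of 15 cases (37.1% of all genes with 1 probe set passed), and members with 2 or more passed in 15 of 21 (71.9% of all such genes). The single called member with 1 probe set was Foxc2. Every measured member of the Foxc (2), Foxk (2), Foxo (3) and Foxm (1) subfamilies was called, and no measured member of Foxa (3), Foxb (2), Foxe (1), Foxf (2), Foxh (1), Foxi (1), Foxq (1) or Foxs (1) was. Of the 20 members without a call, 1 (Foxp4) had an unadjusted p under 0.05 in limma.

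**Figure D1:**
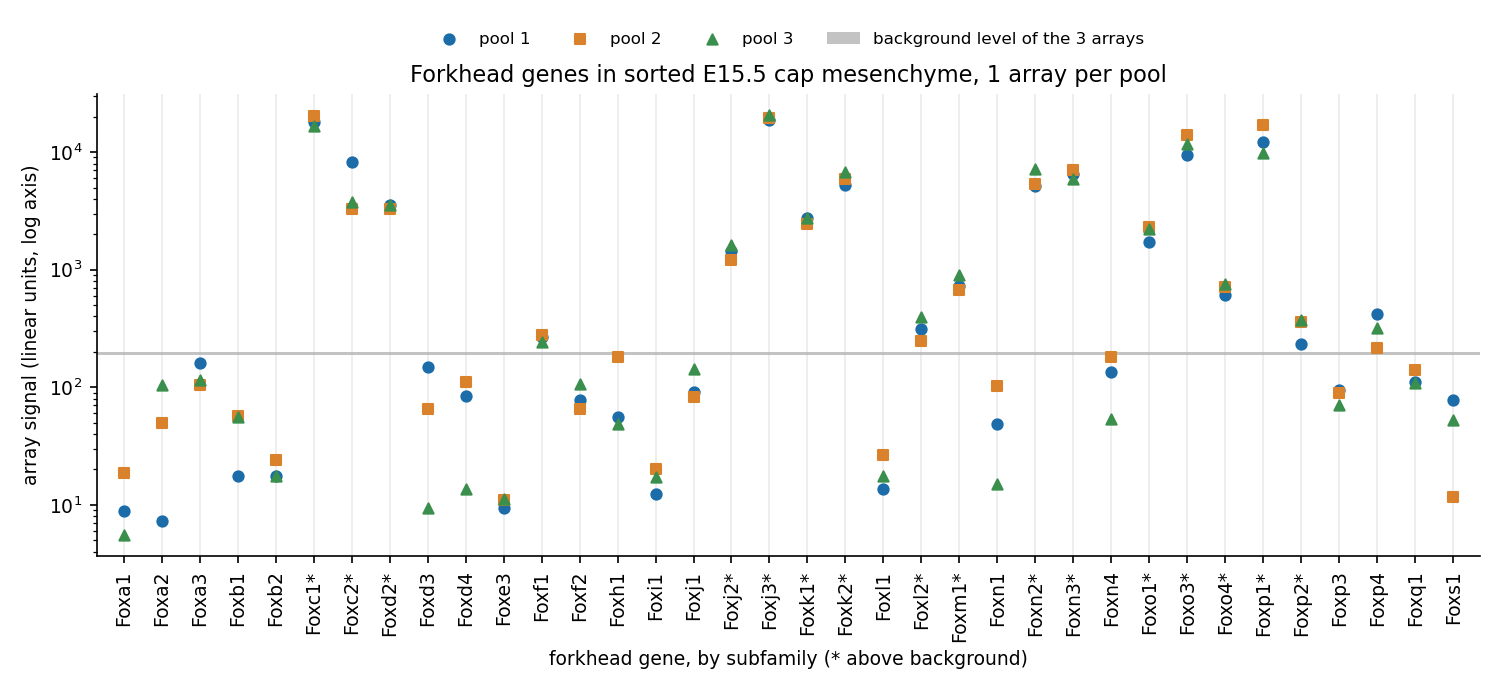
Signal of each forkhead gene's strongest probe set in the 3 pools, on a log axis, with genes in subfamily order and asterisks on the 16 above background; the grey line spans the background levels of 187 to 201. Most called genes sit far over that line in all 3 pools, whereas Foxf1, Foxl2, Foxp2 and Foxp4 lie close to it.

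Foxc1 and Foxc2, which pattern mesoderm and limit the domain of Gdnf in the mouse nephric field, were both above background. Foxc1 read 18172, 20140 and 16729 in pools 1, 2 and 3 on its stronger probe set (6.44 ± 0.14 log2 over background, SE; adjusted p = 1.7e-08, limma). Its other probe set, at 5200, 5983 and 4264, passed as well, and the pools lay close together on both. Foxc2 read 8315, 3253 and 3755 (4.47 ± 0.25 log2 over background, adjusted p = 1.1e-06, limma). Pool 1 stood apart there, and Foxc2 was the only called forkhead gene whose highest and lowest pools differed at least 2-fold on the strongest probe set. Over all 34 called forkhead probe sets, 4 differed that much, the others being 2 of Foxn3 and 1 of Foxp1. The share over all called probe sets is not given here, so this count has no comparison. Without pool 1, Foxc2 lay 4.07 log2 over background and was still called (adjusted p = 1.5e-09, limma). By strongest probe set, 6.25% (1 of 16) of the called forkhead genes and 6.88% of all called genes differed that much.

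Foxc2 is also known from podocytes, so podocyte markers are given beside it. The slit diaphragm gene Nphs1 read 119, 110 and 102 in pools 1, 2 and 3 and was not above background. Podxl, which encodes a sialomucin of the podocyte surface, read 492, 903 and 690, and Ptpro, a podocyte phosphatase gene, read 1133, 1440 and 1392. Both passed. The other measured markers did not, with Synpo, an actin-associated protein gene, at 214, 155 and 243 and the chloride channel family gene Clic5 at 168, 80.2 and 110. In pool 1, the pool with the highest Foxc2 signal, Podxl and Ptpro were lowest and Nphs1 and Clic5 highest, so the 5 markers shared no order of pools. The summed signal of the 5 measured podocyte markers ranged from 2126 to 2689 over the pools.

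Foxd2, a relative of Foxd1 with a role in mouse kidney growth, read 3579, 3304 and 3559 in pools 1, 2 and 3 (4.05 ± 0.12 log2 over background, adjusted p = 2.9e-08, limma). Its second probe set read 44.6, 33.6 and 19.4, below background in every pool, so the call rests on a single probe set. Foxd3, a regulator of neural crest, read 150, 65.6 and 9.46 and was not called. Foxd4 was not called either, at 83.6, 112 and 13.6. The neural crest marker Sox10 did not pass, with 135, 190 and 269 in the same pools, over the background level in pools 2 and 3. Of the 4 measured neural and neural crest markers 1 passed, Elavl4, at 3705, 3326 and 3711.

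Neighbouring forkhead genes differed in their calls. Foxq1, Foxf2 and Foxc1 follow each other on chromosome 13 with 0 protein-coding genes between them in RefSeq, and of these only Foxc1 was above background. Foxf2, which acts in mesenchyme of gut and palate, read 77.6, 65.7 and 106. Foxq1 read 110, 141 and 109. On chromosome 8, Foxf1 and Foxc2 are separated by 1 protein-coding gene, and Foxl1 follows Foxc2 directly; only Foxc2 was called. Foxf1, a Hedgehog target in visceral mesenchyme, read 268, 278 and 241, over the background level in all 3 pools but without passing (0.40 ± 0.25 log2, adjusted p = 0.182, limma). The second Foxf1 probe set read 13.2, 13.2 and 14.0, below background in every pool. Foxl1, a gene of gut mesenchyme, read 13.7, 26.6 and 17.8, also below it in every pool. On chromosome 4, Foxd2 was called and the adjoining lens gene Foxe3 was not, at 9.42, 10.9 and 11.2.

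**Figure D2:**
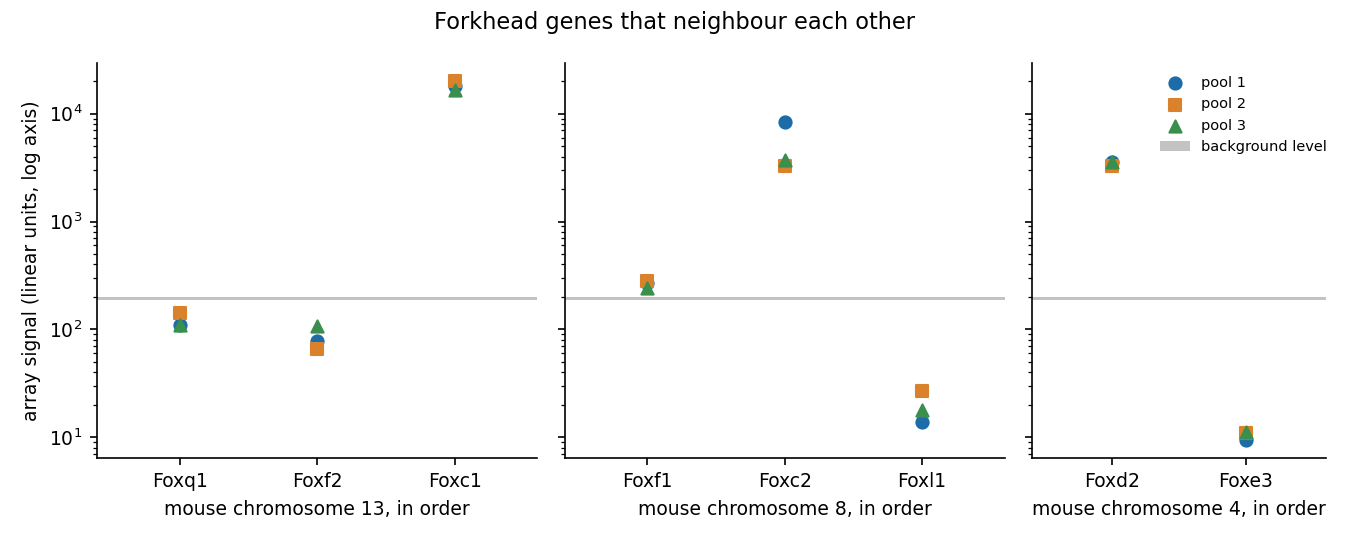
Signals in the 3 pools (log axis) of forkhead genes that neighbour each other on chromosomes 13, 8 and 4, in chromosomal order, with the background level in grey. In each group a single gene (Foxc1, Foxc2 or Foxd2) was above background.

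Foxo1, Foxo3 and Foxo4, which couple growth factor signalling to genes of arrest, stress defence and survival, were all called. Foxo3 read 9436, 13944 and 11722 in pools 1, 2 and 3 (5.78 ± 0.16 log2 over background, adjusted p = 2.3e-08, limma). Foxo1 read 1729, 2287 and 2225 (3.30 ± 0.14, adjusted p = 2.7e-07) on its strongest probe set, lowest in pool 1. Its other passing probe sets read 1397, 1114 and 1453, lowest in pool 2, and 931, 967 and 908, lowest in pool 3, so the pools had no shared order. The strongest probe sets of Foxo1 and Foxo3 can match several transcripts, and with such probe sets set aside Foxo3 lay at 3.93 and Foxo1 at 2.75 log2 over background, both still called. Foxo4 read 606, 707 and 751 (1.73 ± 0.17, adjusted p = 3.8e-05). Probe sets disagreed in each case: 3 of 4 passed for Foxo1, 2 of 3 for Foxo3 and 1 of 2 for Foxo4. The failing probe sets averaged 16.3 ± 2.77 for Foxo1, 13.4 ± 6.74 for Foxo3 and 118 ± 86.7 for Foxo4 (SD, n = 3 each).

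Genes that control FoxO proteins were above background in 12 of 12 measured cases, with a list median of 5.01 log2 over background. For all named genes these values were 54.4% and 1.20. Most genes of this list have 2 or more probe sets, and 71.9% of all such genes passed. Usp7, which encodes a deubiquitinase that acts on FoxO proteins, averaged 27094 ± 2193, the export receptor gene Xpo1 38750 ± 7965, and Skp2, which encodes a ubiquitin ligase subunit that marks Foxo1 for destruction, 24440 ± 1995 (SD, n = 3 each). The weakest statistics in this list were those of the deacetylase gene Sirt1 (2195 ± 332) and of Sgk1, a kinase gene of the AKT family (2127 ± 580), and both still passed.

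FoxO target genes passed in 14 of 16 cases, with a median of 4.20 log2 over background, beside 54.4% and 1.20 for all named genes. Among all genes with 2 or more probe sets, as most of these targets have, 71.9% passed. Cat, which encodes catalase, averaged 23926 ± 1723, the superoxide dismutase gene Sod2 9692 ± 571, and Bcl2l11, which encodes the cell death protein Bim, 11462 ± 299 (SD, n = 3 each). The 2 that did not pass were Cdkn1b, the gene of the cell cycle inhibitor p27, and Irs2, an insulin receptor substrate gene. Cdkn1b read 323, 224 and 224 in pools 1, 2 and 3 (adjusted p = 0.260, limma), near background in all of them. Irs2 read 250, 33.5 and 21.3, over the background level in pool 1 only. Most of these genes have other regulators, so the counts describe levels and not FoxO activity.

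**Figure D3:**
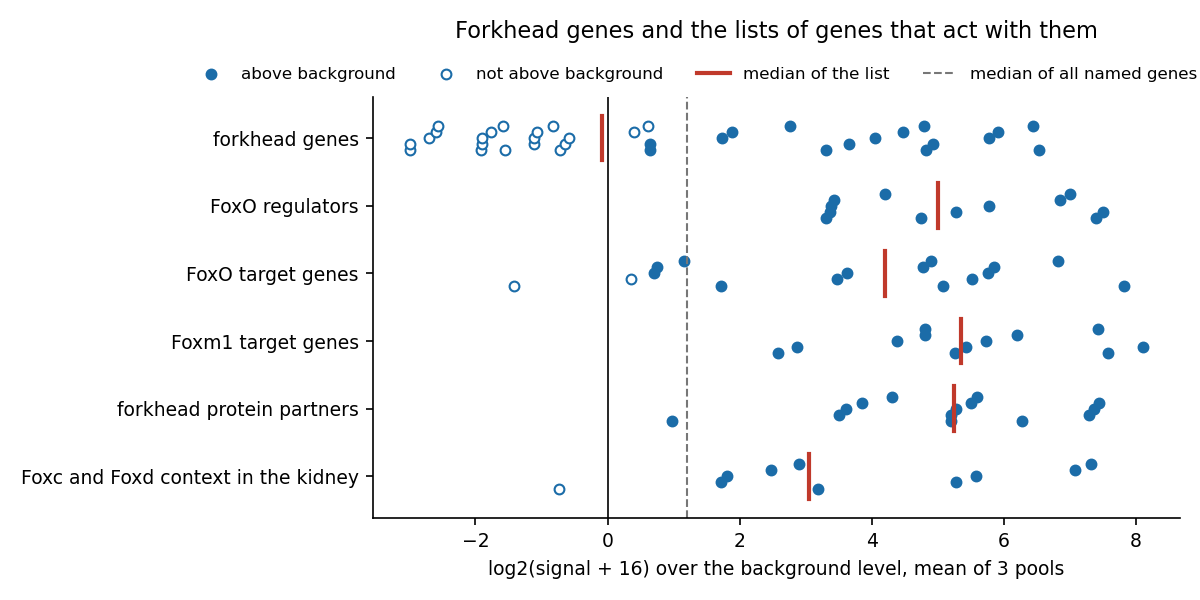
Mean log2(signal + 16) over the background level for each of the 36 forkhead genes and for the measured genes of 5 lists of regulators, targets and partners; red bars are list medians, the dashed line is the median of all named genes at 1.20. The forkhead genes spread to both sides of background with a median of -0.09, whereas medians of the other lists lie between 3.05 and 5.35.

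Foxm1, the forkhead activator of the mitotic programme, read 730, 677 and 898 in pools 1, 2 and 3 (1.88 ± 0.16 log2 over background, adjusted p = 1.8e-05, limma). Another 2 of its 4 probe sets passed at means of 663 ± 149 and 489 ± 137, and the last read 27.1, 4.25 and 2.99. Its target genes were above background in 12 of 12 measured cases, with a median of 5.35 log2 over background. Of all named genes, 54.4% passed (median 1.20), and of those with 2 or more probe sets 71.9%. The count describes levels, and Foxm1 activity was not tested. Top2a, the topoisomerase gene of dividing cells, averaged 40576 ± 4939, the centromere histone gene Cenpa 15470 ± 328 and the cyclin gene Ccnb2 9080 ± 471 (SD, n = 3 each). The weakest statistics among these targets were those of the mitotic kinase gene Plk1 (1554 ± 314) and the phosphatase gene Cdc25b (1257 ± 224). With ambiguous probe sets (those whose design can match several transcripts) set aside, 8 targets stayed measurable and 7 of those passed, Cenpa being the exception.

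Foxk1 and Foxk2, widely expressed factors that work with Sin3 and the deubiquitinase Bap1, were both called. Foxk1 read 2741, 2434 and 2761 in pools 1, 2 and 3 (3.66 ± 0.12 log2 over background, adjusted p = 5.4e-08, limma), on 1 of its 3 probe sets. Foxk2 read 5258, 5859 and 6755 (4.82 ± 0.13, adjusted p = 2.1e-08), on 3 of 5. The pools differed little for either gene. Protein partners of forkhead factors passed in 14 of 14 measured cases (median 5.24 log2 over background), beside 54.4% of all named genes (median 1.20). Most of these partners have 2 or more probe sets, and of all such genes 71.9% passed. Sin3b averaged 16257 ± 757, the corepressor gene Ctbp1 36778 ± 2639 and the signal transducer gene Smad3 10159 ± 303 (SD, n = 3 each). The lowest statistics were those of Mybl2, which encodes a partner of Foxm1 at mitotic promoters (302, 513 and 402), and of Gatad2b, a NuRD subunit gene (5986, 3161 and 881).

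Foxj2, Foxj3, Foxn2 and Foxn3, which are active in many tissues, were above background. Foxj3 read 18598, 19342 and 20643 in pools 1, 2 and 3 (6.53 ± 0.13 log2 over background, adjusted p = 1.7e-08, limma), and Foxj2 read 1441, 1209 and 1618 (2.76 ± 0.14, adjusted p = 6.6e-07). Foxj2 and Foxc1 were the 2 called genes with several probe sets on which every probe set passed. Foxn2 read 5156, 5331 and 7152, with pool 3 highest (4.79 ± 0.13, adjusted p = 2.7e-08). Foxn3, known as a checkpoint suppressor, read 6461, 7021 and 5848 (4.93 ± 0.13, adjusted p = 2.0e-08). Its next probe sets read 5112, 3364 and 2236, and 1190, 776 and 393. The pools spread more widely there than on the strongest probe set, with pool 1 highest and pool 3 lowest on both.

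In the Foxp subfamily of repressors, Foxp1 was clearly above background and its relatives lay near it or below. Foxp1 read 12126, 16901 and 9846 in pools 1, 2 and 3 (5.91 ± 0.18 log2 over background, adjusted p = 4.3e-08, limma), and 7 of its 8 probe sets passed. Foxp2, known for its part in brain and lung, passed on 1 of 6 probe sets, at 232, 360 and 371 (0.65 ± 0.26 log2, adjusted p = 0.0491). Foxp4 did not pass on any of 3, the strongest reading 419, 214 and 322 (0.62 ± 0.27 log2, adjusted p = 0.0655, unadjusted p = 0.0275). These values stand on either side of the threshold and their log2 distances differ by less than their errors. Foxp3, the factor of regulatory T cells, was below background at 94.8, 89.2 and 70.8. The T cell receptor complex genes Cd3e (24.7 ± 11.1) and Cd3g (19.6 ± 16.4) were likewise not called (SD, n = 3 each). The same held for Cd4 (28.8 ± 15.0) and Il2ra (96.8 ± 48.9). Cd8a read 263, 207 and 297, over the background level in all 3 pools but without passing (0.35 log2, adjusted p = 0.248, limma).

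Foxl2, a gene of ovarian granulosa cells, passed narrowly on 1 of 2 probe sets, with 314, 250 and 395 in pools 1, 2 and 3 (0.65 ± 0.24 log2 over background, adjusted p = 0.0405, limma). The other probe set read 7.22, 11.8 and 70.3. The calls of Foxl2 and Foxp2 were not kept at the 99th percentile of background, where both lay below the level (-0.48 log2 each), and Foxl2 lost its call whichever pool was left out (adjusted p from 0.0808 without pool 2 to 0.184 without pool 3). Foxp2 lost its own without pool 2 (adjusted p = 0.244) and without pool 3 (adjusted p = 0.169).

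Members known from endoderm, intercalated cells and cells with motile cilia were not above background. Foxa1, Foxa2 and Foxa3, the pioneer factors of endoderm, averaged 11.1 ± 6.88, 53.6 ± 48.7 and 127 ± 30.6 (SD, n = 3 each). Among endoderm and liver markers 0 of 6 passed, against 54.4% of all named genes, with summed signals of 339 to 439 per pool. Foxi1, which specifies intercalated cells of the collecting duct, read 12.4, 20.2 and 17.3, and its known target Atp6v1b1, a proton pump gene, read 14.9, 27.2 and 70.7. Foxj1, the master regulator of motile cilia, read 91.2, 82.8 and 142. Of 6 multiciliated cell markers 1 passed, against the same 54.4% of all named genes. It was the tektin gene Tekt1, which encodes a ciliary microtubule protein (424, 530 and 910), while Ccno, a cyclin gene needed for multiciliation, did not pass (102 ± 39.6, SD, n = 3). Foxj1 and Tekt1 were highest in pool 3, as were 43.0% of all called genes. The markers Ccno and Rsph1 (209, 180 and 285) were also highest in pool 3, and Rsph1 was not called. Dnah5 (227, 181 and 168), Dnah9 (122, 44.2 and 37.5) and Cfap126 (185, 150 and 154) were highest in pool 1. These genes of the ciliary axoneme were not called either, and the 6 markers shared no highest pool.

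The remaining members also stayed below the background level on average. Foxn1, the thymic epithelial factor, read 49.1, 102 and 15.2 in pools 1, 2 and 3, and Foxn4, a factor of retina and spinal cord, 136, 180 and 53.9. Foxh1, the partner of Smad2 in Nodal signalling, read 56.0, 181 and 49.0 on the strongest of 3 probe sets. Foxb1 and Foxb2, genes of the embryonic nervous system, averaged 43.5 ± 22.6 and 19.8 ± 3.70, and Foxs1, known from pericytes, 47.6 ± 33.6 (SD, n = 3 each). On the strongest probe sets, Foxs1 was lowest in pool 2 and the other genes highest there, all at values under background. Other probe sets of the same genes did not keep this order. The second Foxn1 probe set read 83.4, 14.8 and 35.4, lowest in pool 2. Those of Foxh1 read 14.0, 17.6 and 52.9, highest in pool 3, and 11.0, 24.4 and 6.01, highest in pool 2. On the strongest probe sets the spread between pools was small for Foxb2 and wide for Foxn1. Transcripts can be present below this level, since the call depends on how well a probe set binds.

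Genes that surround Foxc and Foxd factors in kidney development passed in 9 of 10 measured cases, with a median of 3.05 log2 over background. The values for all named genes were 54.4% and 1.20, and 71.9% of those with 2 or more probe sets passed. Slit2, which encodes a guidance ligand that confines Gdnf expression through Robo2, averaged 28582 ± 3126, the coactivator gene Eya1 33774 ± 4443 and Gdnf, which encodes the ligand of the ureteric receptor Ret, 8235 ± 982 (SD, n = 3 each). Podxl and Nphs1, given above, had the smallest statistics, and Nphs1 was the gene that did not pass.

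Within a gene, probe sets often disagreed. Among the 15 called forkhead genes with several probe sets, all probe sets passed in 2, against 2305 of 6482 called genes with several probe sets in the whole table (35.6%). The log2 ratio of 3′ over 5′ control probe sets ranged from 4.08 to 5.05 for Gapdh and from 1.82 to 3.28 for actin over the 3 arrays, so 5′ parts of these transcripts gave less signal. Positions of the forkhead probe sets within their transcripts were not used here, and the part of this in the disagreement was not tested.

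**Figure D4:**
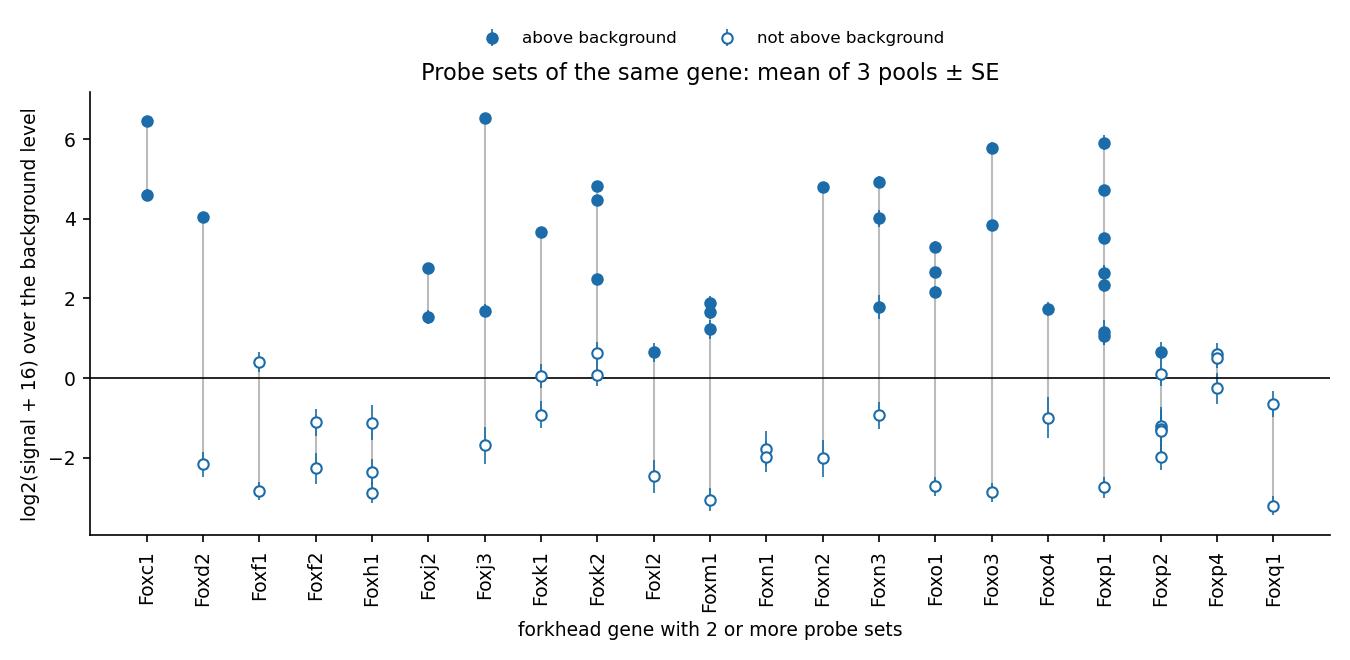
Mean log2(signal + 16) over the background level of every probe set of the 21 forkhead genes with 2 or more. Bars are the moderated SE of the limma fit, and filled points are above background. Foxd2, Foxn2, Foxo1, Foxo3 and Foxp1 have probe sets both well over and well under the line at 0, and Foxc1 and Foxj2 are the genes with every point filled.

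The pools agreed about as well on the called forkhead genes as on other called genes. On the log2 scale, the SD between pools had a median of 0.21 over the 16 called members, against 0.23 over all called genes. The median range between the highest and lowest pool was 0.40 for the called members and 0.44 for all called genes. Pool 3 was highest for 9 of the 16, pool 2 for 5 and pool 1 for 2. Over all called genes pool 3 was highest in 43.0%, pool 1 in 29.5% and pool 2 in 27.5%.

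Promoters of RefSeq were at hand for 23 of the 36 members, 28 windows of 300 bases in all. The median CpG ratio was 0.819 for the 10 called members and 0.665 for the 13 others, against 0.785 for 8088 called and 0.358 for 6364 other named genes with a promoter. A ratio over 0.6 was found for 9 of the 10 called members and 8 of the 13 others, against 77.8% of called and 27.5% of other genes in the whole table. Foxn3 was the called member below that value, at 0.294, and Foxa1, at 0.929, had a high ratio without a call. The ratio thus separated called from other genes less among forkhead genes than over all genes in these medians, a difference that was not tested. The forkhead binding motif TGTTTAC, read on both strands (GTAAACA), occurred in 1 of the 28 member windows, the single window of Foxa1. Of all 32851 promoter windows, 3.65% held it.

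**Figure D5:**
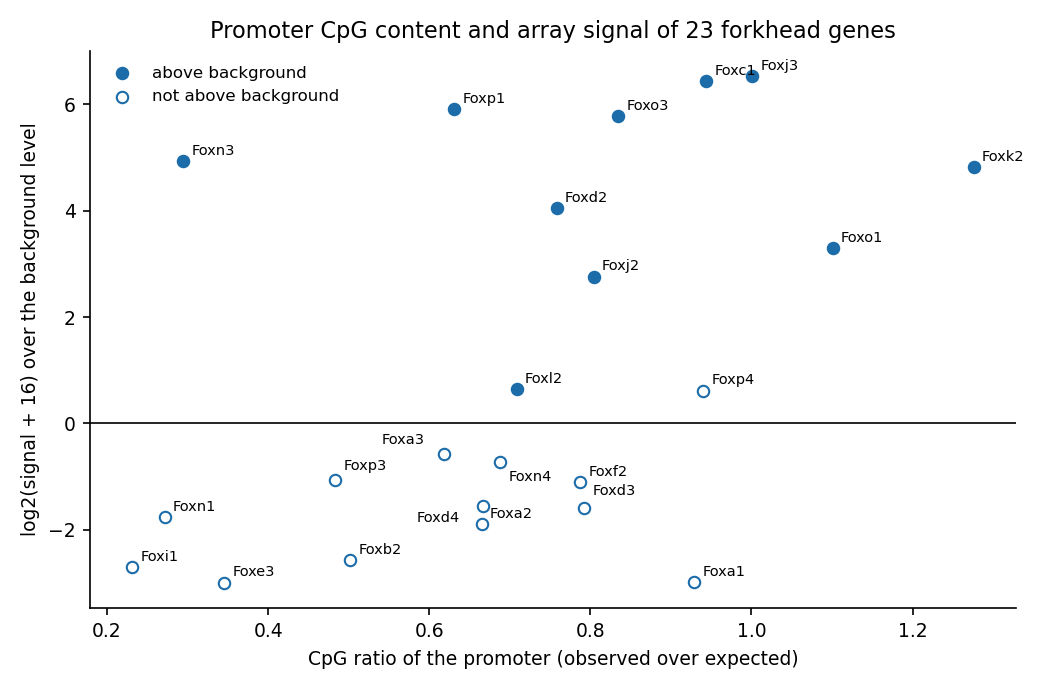
CpG ratio of the promoter (mean over a gene's windows) against mean log2(signal + 16) over background for the 23 forkhead genes with a RefSeq promoter; filled points are above background. Genes without a call span CpG ratios from 0.232 (Foxi1) to 0.940 (Foxp4), and called genes from 0.294 (Foxn3) to 1.28 (Foxk2).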

How the data were processed

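The deposited values are linear intensity signals, 1 per probe set and array, that the authors made with GCOS, per the submitters' processing notes; version and settings are not given in the sources used here. On every array the mean without the lowest and highest 2% was 1500, so the arrays had been scaled to a common target. Per the labels, RNA was amplified in 2 rounds. Of 45101 probe sets, 64 controls were left out. A single gene symbol was given for 34945 in the platform annotation, several for 932 and none for 9160. Signals were taken as log2(signal + 16) minus the array's own 95th percentile of 148 background probe sets. An intercept-only model of limma 3.58.1 (R 4.3.3), with eBayes and an intensity trend, tested in a one-sided manner over 45037 probe sets whether the mean of the 3 arrays exceeded 0, with Benjamini-Hochberg adjustment. Among the 148 themselves, 2 passed. The probe set with the highest mean stands for a gene. Differences between weak signals are understated by the pseudocount of 16. The fit was tested on simulated data. All members could be named, and of each list the 3 largest and 2 smallest statistics. Members and lists were chosen with earlier results of these data known. List genes that no single-gene probe set represents were not analysed here. Alternatives covered pseudocount, background level, normalization, probe sets, variance model, call rule and each pool left out. Tables and plots used Python 3.11.15, pandas 2.3.3 and matplotlib 3.10.9.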

Additional observations from a re-analysis of the deposited data

Results flagged for a closer look

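A pair of probe sets outside the members was above background and bears on them, because their annotation holds several gene symbols of which 1 is a forkhead gene. The probe set shared by Foxo3 and 1 other symbol had a mean signal of 488 (423, 472 and 570 in pools 1, 2 and 3). The probe set shared by Foxm1 and 2 other symbols had a mean signal of 1163 (1217, 1029 and 1243). Which of the genes gave these signals was not tested.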

How the results depend on the processing

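Of the 36 members, 28 kept their direction and their side of the threshold under every alternative that gave a value for them, 10 of the 16 called ones among them. The count of called forkhead genes was 14 to 15 when 1 pool was left out (52.2% to 53.7% of all named genes passed). It was 14 to 18 under the other tested alternatives (46% to 56.6%) and 18 by signal over the level on all 3 arrays (57.1%). It was 10 where a majority of a gene's probe sets had to pass, the rule under which Foxd2, Foxk1, Foxl2, Foxn2, Foxo4 and Foxp2 lost their calls (38.9% of all named genes passed it). At the 99th percentile of background the mean turned below the level for Foxf1 (-0.73 log2), Foxl2 (-0.48), Foxp2 (-0.48) and Foxp4 (-0.52), and the forkhead count was 14, against 46% of all genes. Foxf1 and Foxp4 were called at the 90th percentile (adjusted p = 0.0322 and 0.0181, limma). With a pseudocount of 64, Foxl2 and Foxp2 were not called, and Foxp2 was not called after quantile normalization (adjusted p = 0.0528). With ambiguous probe sets (several possible transcripts) set aside, 7 of 8 measured Foxm1 targets passed in place of 12 of 12: another 4 had no probe set left, and Cenpa was not called on the one that remained (-0.23 log2). The same setting lowered Foxo3 to 3.93 log2 over background, against 5.78, and Foxo1 to 2.75, against 3.30, without loss of a call. The median SD between pools of called members ranged from 0.19 to 0.22 over 4 alternatives. No paired analysis was possible because there was a single group. Foxl2 and Foxp2, the members with adjusted p nearest 0.05, lay 0.65 log2 over the level.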
